A study of Rattus norvegicus with 6 samples.

Results

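10 microRNAs (miRNAs) known as enriched in neurons were followed in rat plasma exosomes, namely rno-miR-9a-5p, rno-miR-9a-3p, rno-miR-124-3p, rno-miR-128-3p, rno-miR-129-2-3p, rno-miR-132-3p, rno-miR-138-5p, rno-miR-212-3p, rno-miR-212-5p and rno-miR-7a-5p. They were chosen by name, all 10 were listed, and the table held 420 mature miRNAs in all. Where a miRNA was listed in several rows, the row with the highest sum over the libraries was used.

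Adult male Sprague Dawley rats of 200 to 250 g received intraperitoneal injections for 7 days, either of the solvent alone (EXO1 group, 5% DMSO in PBS) or of melatonin at 10 mg/kg in the same solvent (EXO2 group). Plasma was taken on day 8, exosomes, the small vesicles that cells release, were isolated from it, and small RNA of 3 EXO1 and 3 EXO2 libraries was sequenced. Both groups thus carried the solvent, and since no label tells if a library stands for 1 rat, the p-values measure only the spread between these libraries, which may be technical. The question was how melatonin given to the animal alters the miRNA content of its plasma exosomes.

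A miRNA is cut from a hairpin precursor as a duplex of a 5p and a 3p arm, of which usually only one is kept, and the bases 2 to 8 of the mature strand, its seed, pair with target mRNAs. miR-9 and miR-124 are known for promoting neuronal differentiation and for restraining the REST repressor system, miR-128 for limiting neuronal excitability, and miR-132 and miR-212 as a pair transcribed together under the activity-dependent factor CREB. miR-138 is known from rat hippocampal neurons, where it limits the growth of dendritic spines, and miR-7 is abundant in neuroendocrine cells, including pituitary and pancreatic islets, and is bound in brain by the circular RNA Cdr1as. Plasma exosomes come from many cell types, and the libraries carry no label of the cells that shed them.

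The mature sequences of 9 of the 10 miRNAs, from RefSeq on the rat build GRCr8, are shown 5′ to 3′ with the seed in capitals, because they show which of these miRNAs could share targets and which could share reads. The near-identical rno-miR-7b is added for comparison with rno-miR-7a-5p.
rno-miR-9a-5p: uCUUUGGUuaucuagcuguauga
rno-miR-9a-3p: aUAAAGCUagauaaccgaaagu
rno-miR-128-3p: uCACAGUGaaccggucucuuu
rno-miR-129-2-3p: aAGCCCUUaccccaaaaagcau
rno-miR-132-3p: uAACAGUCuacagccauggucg
rno-miR-212-3p: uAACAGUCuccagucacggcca
rno-miR-212-5p: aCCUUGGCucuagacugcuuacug
rno-miR-138-5p: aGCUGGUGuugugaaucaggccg
rno-miR-7a-5p: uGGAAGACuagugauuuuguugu
rno-miR-7b: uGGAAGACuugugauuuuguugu

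rno-miR-132-3p and rno-miR-212-3p share the seed AACAGUC, are identical over their first 9 bases and have the same base at 17 of 22 positions. They are the only pair with a common seed among the 9 members with a sequence. rno-miR-7a-5p shares its seed with rno-miR-7b and differs from it by A10U (base of rno-miR-7a-5p, position from the 5′ end, base of rno-miR-7b), so reads of this pair are hard to tell apart and their split is uncertain. The other members with a sequence shared their seed with no miRNA of the table among the 382 of 420 with a sequence. rno-miR-124-3p had no sequence here and was not compared.

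The annotation places rno-miR-132-3p at chr10:60522091-60522112, rno-miR-212-3p at chr10:60521811-60521832 and rno-miR-212-5p at chr10:60521771-60521794, all on the plus strand, with 222 bases between rno-miR-212-3p and the 5p arm of miR-132. rno-miR-9a-5p lies at 3 loci, chr1:142849415-142849437, chr2:15933307-15933329 and chr2:175974986-175975008, all on the plus strand. rno-miR-128-3p lies at chr8:120963807-120963827 on the minus strand within the span of Arpp21 and at chr13:42251933-42251953 on the plus strand within the span of R3hdm1, and rno-miR-7a-5p lies at chr1:142215818-142215840 and, within the span of Hnrnpk, at chr17:6278710-6278732, both on the plus strand. rno-miR-138-5p lies at chr8:131178456-131178478 on the plus strand and chr19:10680184-10680206 on the minus strand, and rno-miR-129-2-3p at chr3:100657405-100657426 on the minus strand.

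The libraries held 2279500 to 5868405 miRNA reads, and the values are normalized CPM, reads divided by a library factor that also corrects for composition, in which 1 read was worth 0.179 to 0.634. Values of a group are given in the order of replicates 1, 2 and 3. Erythrocyte miRNAs, a list of 13 defined by miR-451-5p, miR-144-3p and miR-486 and all above 0 in every library, took 7.99%, 24.9% and 12.03% of the reads in EXO1 replicates 1, 2 and 3 but 58.6%, 65.4% and 68.7% in EXO2. Muscle miRNAs took 82.6% of the reads of EXO1 replicate 1, 23.2% of EXO1 replicate 2 and 0.739% to 1.51% of the other libraries. Outside these 2 lists, 554012 reads remained in EXO1 replicate 1 and 1139492 to 2454859 in the others.

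The 10 miRNAs spanned a wide range of levels. rno-miR-7a-5p, rno-miR-128-3p and rno-miR-9a-5p were read at 284 normalized CPM or more in every library, rno-miR-9a-3p, rno-miR-132-3p and rno-miR-124-3p at 0.532 to 228, and rno-miR-138-5p, rno-miR-212-3p, rno-miR-212-5p and rno-miR-129-2-3p each had at least 1 library at 0. Their summed share of all miRNA reads was 0.151%, 2.87% and 0.359% in replicates 1, 2 and 3 of EXO1 and 1.52%, 0.802% and 0.760% in those of EXO2. rno-miR-7a-5p alone made up 27.5% to 91.6% of these reads, the highest share being in EXO1 replicate 2.

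**Figure D1:**
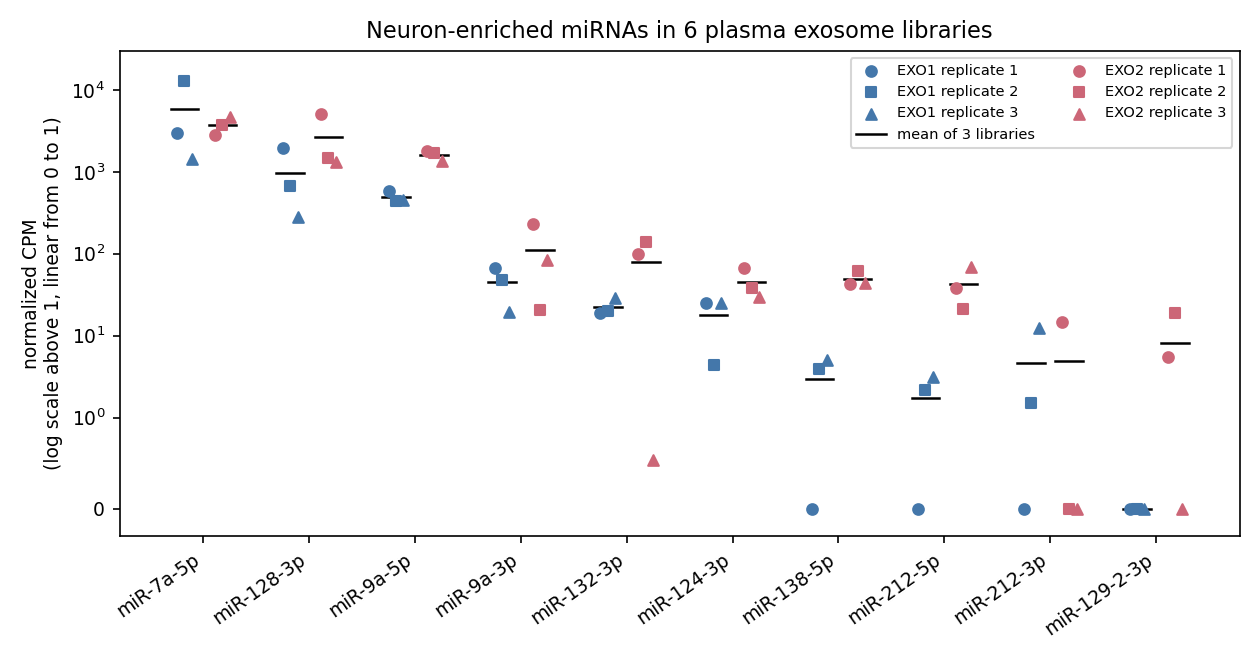
Values of the 10 miRNAs in each library, in normalized CPM on an axis that is logarithmic above 1 and linear from 0 to 1, with the mean of each group of 3 libraries as a bar and the replicate number as the marker shape. On this normalized scale rno-miR-9a-5p shows narrow groups, 437 to 589 in EXO1 and 1346 to 1801 in EXO2, while rno-miR-138-5p and rno-miR-212-5p lie between 0 and 5.08 in EXO1 and between 21.2 and 68.7 in EXO2.

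rno-miR-9a-5p had the lowest p-value and the narrowest interval of the 10 members, and its groups did not overlap. Its values were 589, 437 and 448 normalized CPM in EXO1 replicates 1, 2 and 3 and 1801, 1681 and 1346 in EXO2, from 930 to 9367 reads per library. Every EXO2 library lay above every EXO1 library, the lowest of EXO2 being 2.28 times the highest of EXO1. The means were 491 ± 85.0 (SD, n = 3) and 1610 ± 236 (SD, n = 3), and among all miRNAs of a library it ranked 78 to 85 in EXO1 and 44 to 54 in EXO2. The log2 fold change on the log2(value + 1) scale was 1.71 (95% interval 0.69 to 2.74), with an unadjusted p of 0.00294 and an adjusted p of 0.297 from limma. It passed the thresholds of the study's methods (fold change above 1.5, p below 0.05 before adjustment) in 16 of 17 alternative settings, and missed them with scaling by library totals alone (unadjusted p = 0.0544). Here and below these thresholds were applied to limma p-values, whereas the study's methods name another test. In these data more of a miRNA per vesicle and more vesicles of one source cannot be told apart.

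rno-miR-9a-3p, the opposite arm of the same precursors, did not separate the groups. It had EXO1 values of 66.5, 48.2 and 19.4 normalized CPM and EXO2 values of 228, 20.8 and 84.1, so that EXO2 replicate 2 lay among the EXO1 libraries. A log2 fold change of 0.88 was fitted (95% interval -1.39 to 3.16, adjusted p = 0.640 from limma), and it moved between 0.08 and 1.77 as single libraries were left out, the lowest being without EXO2 replicate 1.

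The 5p arm dominated in every library, but not by a constant factor. There were 8.86, 9.06 and 23.0 reads of rno-miR-9a-5p for each read of rno-miR-9a-3p in EXO1 replicates 1, 2 and 3 and 7.92, 80.8 and 16.01 in EXO2. The 5p arm thus took 88.8% (95% Wilson interval 88.1 to 89.4) of the reads of both arms in EXO2 replicate 1 and 98.8% (98.5 to 99.0) in EXO2 replicate 2, which are the lowest and the highest of the 6 libraries and belong to 1 group. The intervals cover counting error only. The mean log2 ratio was 3.61 ± 0.79 (SD, n = 3) in EXO1 and 4.44 ± 1.72 (SD, n = 3) in EXO2, a difference of 0.83 that the two-sided exact permutation test did not separate from the spread between libraries (p = 0.7, where 0.1 is the smallest that 3 against 3 libraries allow). Without EXO2 replicate 2 the difference was -0.12.

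rno-miR-124-3p, the classic neuron-specific miRNA, was read at low levels. It had EXO1 values of 24.7, 4.33 and 24.7 normalized CPM and EXO2 values of 66.6, 38.4 and 29.8, from 20 to 301 reads. All EXO2 libraries lay above all EXO1 libraries, but the lowest of EXO2 was only 1.205 times the highest of EXO1. Its log2 fold change of 1.51 (95% interval -1.24 to 4.26) passed neither threshold on p (unadjusted p = 0.258, adjusted p = 0.509 from limma). Without EXO1 replicate 2, the one low library, it was 0.76.

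rno-miR-128-3p was the member with the highest single value in EXO2. It had EXO1 values of 1972, 670.4 and 284 normalized CPM and EXO2 values of 5126, 1456 and 1318. Replicate 1 was the highest library of both groups, and the groups overlapped, since EXO1 replicate 1 lay above both EXO2 replicates 2 and 3. Its log2 fold change was 1.57 (95% interval 0.05 to 3.08, unadjusted p = 0.0435, adjusted p = 0.342 from limma). This pass of the thresholds of the methods held in 9 of 17 alternative settings only. Leaving out EXO1 replicate 3 gave a log2 fold change of 0.90 (unadjusted p = 0.221), leaving out EXO2 replicate 1 gave 0.94 (unadjusted p = 0.263), and leaving out EXO1 replicate 2 also lost the pass (unadjusted p = 0.142).

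The miR-132/212 locus gave 4 mature miRNAs in the table, and they did not move as a unit. rno-miR-212-5p lay higher in all EXO2 libraries, rno-miR-132-3p in 2 of the 3, and rno-miR-212-3p and the 5p arm of miR-132 showed no common direction.

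rno-miR-212-5p had EXO1 values of 0, 2.16 and 3.09 normalized CPM and EXO2 values of 38.5, 21.2 and 68.7, from 0, 10 and 14 reads against 174, 118 and 258. The groups did not overlap even though the 0 of EXO1 replicate 1 allows up to 3 reads, or 1.90 normalized CPM, and the lowest EXO2 library had 6.85 times the value of the highest EXO1 library. The log2 fold change of 4.07 (95% interval 0.63 to 7.50) was the highest of all miRNAs tested, with an unadjusted p of 0.0235 and an adjusted p of 0.333 from limma. It passed the thresholds of the methods in 14 of 17 alternative settings, and missed them with scaling by totals alone (unadjusted p = 0.0504), without EXO1 replicate 1 (0.0584) and without EXO2 replicate 3 (0.0753).

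rno-miR-212-3p, usually regarded as the main arm, had EXO1 values of 0, 1.51 and 12.4 normalized CPM and EXO2 values of 14.8, 0 and 0. It was read in 2 EXO1 libraries, with 7 and 56 reads, and in 1 EXO2 library, with 67 reads, and the 0 in EXO2 replicates 2 and 3 allows up to 3 reads, 0.538 and 0.798 normalized CPM. The fit gave a log2 fold change of -0.36 (95% interval -3.53 to 2.81, adjusted p = 0.915 from limma), and it ranged from -1.69 without EXO2 replicate 1 to 0.66 without EXO1 replicate 3.

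The arm ratio of miR-212 therefore differed widely between libraries. rno-miR-212-5p made up 58.8% of 17 reads of both arms in EXO1 replicate 2 (95% Wilson interval 36.0 to 78.4) and 20% of 70 reads in EXO1 replicate 3 (12.3 to 30.8), while EXO1 replicate 1 had no read of either arm. In EXO2 it made up 72.2% of 241 reads in replicate 1 (66.2 to 77.5) and 100% of 118 and 258 reads in replicates 2 and 3. The share was higher in every EXO2 library than in the EXO1 libraries with reads, though the interval of EXO1 replicate 2 overlapped that of EXO2 replicate 1. With 0.5 read added to each arm the mean log2 ratio was -0.49 ± 1.30 (SD, n = 3) in EXO1 and 6.09 ± 4.13 (SD, n = 3) in EXO2, a difference of 6.58 with an exact permutation p of 0.1, the smallest this design allows. The size of this difference rests on the added read where an arm is at 0, and the value of 0 for EXO1 replicate 1 holds no reads at all. Without that library the difference was 6.83 (exact permutation p = 0.2, the smallest that 3 against 2 libraries allow).

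rno-miR-132-3p had EXO1 values of 19.0, 19.7 and 28.5 normalized CPM and EXO2 values of 99.8, 139.8 and 0.532. EXO2 replicates 1 and 2 lay well above EXO1, with 451 and 779 reads, whereas EXO2 replicate 3 had only 2 reads. The log2 fold change was 0.28 (95% interval -3.24 to 3.80, adjusted p = 0.940 from limma), and it was 2.37 when EXO2 replicate 3 was left out (unadjusted p = 0.0715). Without EXO2 replicate 2 or replicate 1 the direction turned, the lowest value being -0.89. The 5p arm, rno-miR-132-5p, had EXO1 values of 14.6, 15.1 and 16.8 normalized CPM and EXO2 values of 38.3, 0.538 and 0.532, a log2 fold change of -1.86 (SE 1.77, adjusted p = 0.547 from limma), so EXO2 replicate 2 was the highest library of one arm and had 3 reads of the other.

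Since rno-miR-132-3p and rno-miR-212-3p come from one primary transcript and share a seed, their ratio was followed in each library. The reads of the pair were 30 to 0, 91 to 7 and 129 to 56 in EXO1 replicates 1, 2 and 3 and 451 to 67, 779 to 0 and 2 to 0 in EXO2. rno-miR-132-3p was in excess wherever both were read, by 13.0 and 2.30 times in EXO1 replicates 2 and 3 and by 6.73 times in EXO2 replicate 1. The mean log2 ratio with 0.5 read added was 3.58 ± 2.37 (SD, n = 3) in EXO1 and 5.22 ± 4.67 (SD, n = 3) in EXO2, a difference of 1.64 within the spread between libraries (exact permutation p = 0.7), which was -1.05 without EXO2 replicate 2. With only 2 reads of the pair, EXO2 replicate 3 could not show a ratio.

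**Figure D2:**
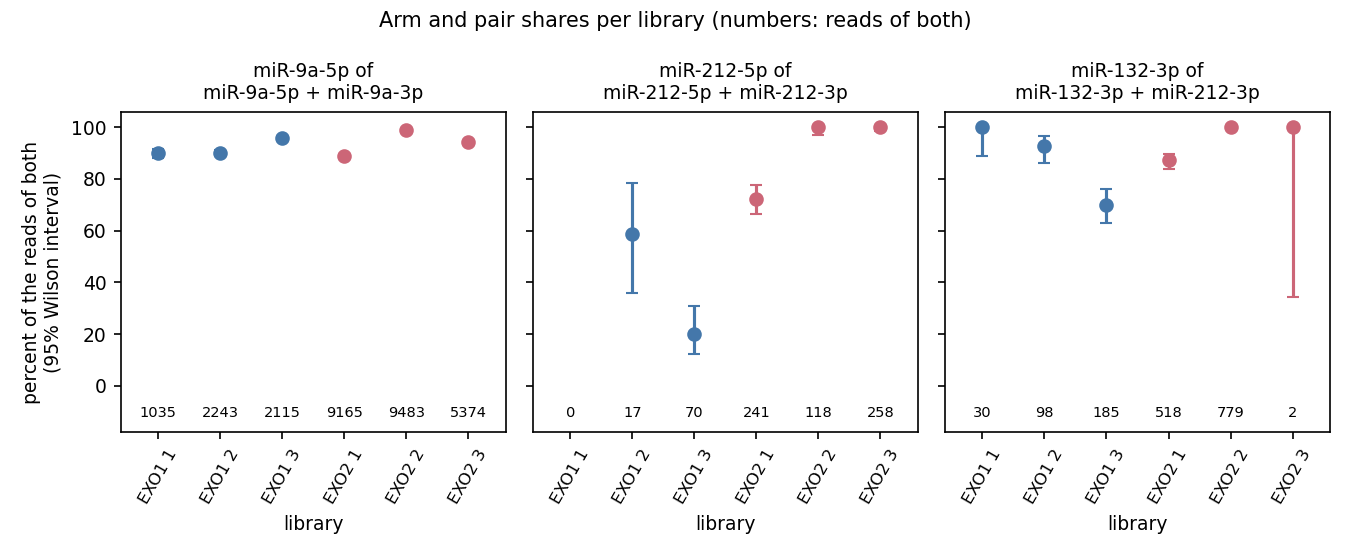
Share of the first-named miRNA among the reads of both, in percent, for the arms of miR-9a, the arms of miR-212 and the pair of miR-132-3p and miR-212-3p, with 95% Wilson intervals and the number of reads of both under each library (EXO1 in blue, EXO2 in red). The miR-9a-5p share stays between 88.8% and 98.8%, the miR-212-5p share runs from 20% in EXO1 replicate 3 to 100% in EXO2 replicates 2 and 3, and EXO1 replicate 1 has no point for miR-212 because it had no reads of either arm.

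rno-miR-138-5p was low or at 0 in EXO1 and was read in all EXO2 libraries. It had EXO1 values of 0, 3.89 and 5.08 normalized CPM and EXO2 values of 42.3, 61.4 and 44.2, from 0, 18 and 23 reads against 191, 342 and 166. The groups did not overlap, and the lowest EXO2 library had 8.32 times the value of the highest EXO1 library. Its log2 fold change was 4.0 (95% interval 0.66 to 7.34, unadjusted p = 0.0221, adjusted p = 0.333 from limma). It passed the thresholds of the methods in 13 of 17 alternative settings, and missed them with scaling by totals alone (unadjusted p = 0.0556), without EXO1 replicate 1 (0.054) and without EXO2 replicate 2 (0.0539). The miRNA had 2 rows, and the lower row held 0 reads in EXO2 replicate 1 where the higher held 191. With the lower row the log2 fold change was 2.63 (unadjusted p = 0.18).

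rno-miR-129-2-3p had no read in any EXO1 library and had 5.53, 18.8 and 0 normalized CPM in EXO2, from 25, 105 and 0 reads. Taking 3 reads per library as the limit of a 0, the EXO2 mean was at least 7.59-fold higher than that of EXO1. This bound covers the counting limit of EXO1 only, not the spread between the EXO2 libraries. In EXO2, 1 library was itself at 0 and so not above EXO1. In limma the log2 fold change was 2.34, with an interval of -0.25 to 4.93 that spans 0. The unadjusted p was 0.0731 and the adjusted p was 0.369 from limma, so rno-miR-129-2-3p missed the thresholds of the methods. The miRNA passed the filter on low values only through EXO2. The other arm, rno-miR-129-5p, had EXO1 values of 91.9, 9.52 and 11.04 normalized CPM and EXO2 values of 78.1, 0.179 and 108, a log2 fold change of -0.07 (SE 1.77, adjusted p = 0.977 from limma). EXO2 replicate 2, the highest library for rno-miR-129-2-3p, held 1 read of rno-miR-129-5p.

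rno-miR-7a-5p was the most abundant member in EXO1 and did not differ in a common direction. It had EXO1 values of 2933, 12959.9 and 1412 normalized CPM and EXO2 values of 2810.1, 3762 and 4652. EXO1 held both the highest and the lowest library, and the EXO2 libraries lay between them. The log2 fold change was -0.04 (95% interval -1.51 to 1.43, adjusted p = 0.973 from limma). It was 0.85 when EXO1 replicate 2 was left out, in which rno-miR-7a-5p ranked 7 among all miRNAs.

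**Figure D3:**
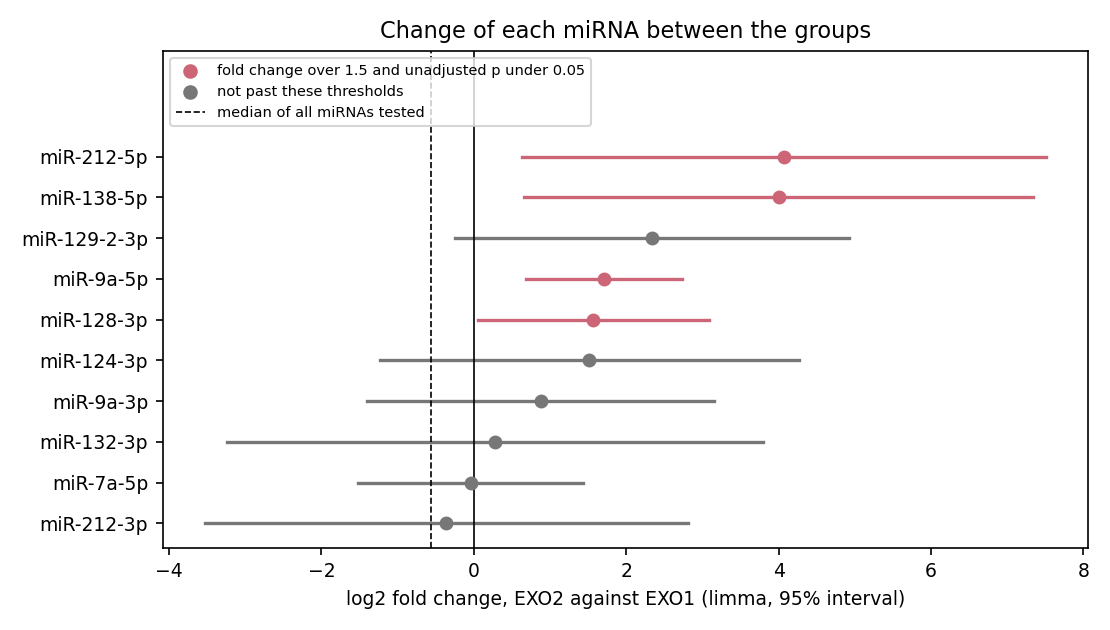
Log2 fold change of each miRNA, EXO2 against EXO1, on the log2(value + 1) scale, with 95% intervals from limma. Red marks those past the thresholds of the methods (fold change above 1.5, limma p below 0.05 before adjustment). The dashed line at -0.56 is the median of the 410 miRNAs tested, and the interval of rno-miR-9a-5p, 0.69 to 2.74, is the narrowest of the 10.

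Of the 10 miRNAs, none passed an adjusted p of 0.05 in limma, as was the case for 0% of the 410 miRNAs tested, while 4 members and 54 of all miRNAs had an unadjusted p under 0.05. The thresholds of the methods were passed upward by 4 members, rno-miR-9a-5p, rno-miR-128-3p, rno-miR-138-5p and rno-miR-212-5p, against 5.85% of all miRNAs tested, and downward by 0 members against 7.32%. All EXO2 libraries lay above all EXO1 libraries for 4 members, rno-miR-9a-5p, rno-miR-124-3p, rno-miR-138-5p and rno-miR-212-5p, against 11.5% of all miRNAs tested, and below them for 0 members against 9.51%. The study had picked rno-miR-9a-5p, rno-miR-138-5p, rno-miR-212-5p and rno-miR-129-2-3p from these same libraries as higher, so these counts are no independent evidence of direction. Its own call thus held rno-miR-129-2-3p, which did not pass the thresholds here, and did not hold rno-miR-128-3p, which did. In a limma fit that borrowed no variance from other miRNAs, rno-miR-128-3p missed the thresholds (unadjusted p = 0.200). rno-miR-129-2-3p missed them in that fit too (unadjusted p = 0.136). Why the calls differ was not tested.

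The median log2 fold change of the 10 members was 1.54, with 8 above 0 and 2 below, and that of all 410 miRNAs was -0.56, with 154 above 0 and 256 below. Without the 4 that the study had picked, the median of the remaining 6 was 0.58, with 4 above 0, and 1 of them, rno-miR-128-3p, passed the thresholds. Over the alternative settings the members' median lay between 0.94 and 1.91, and that of all miRNAs between -0.75 and -0.06, the latter among the 256 miRNAs with 10 or more normalized CPM in 3 libraries, where the 8 members kept had a median of 1.54.

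**Figure D4:**
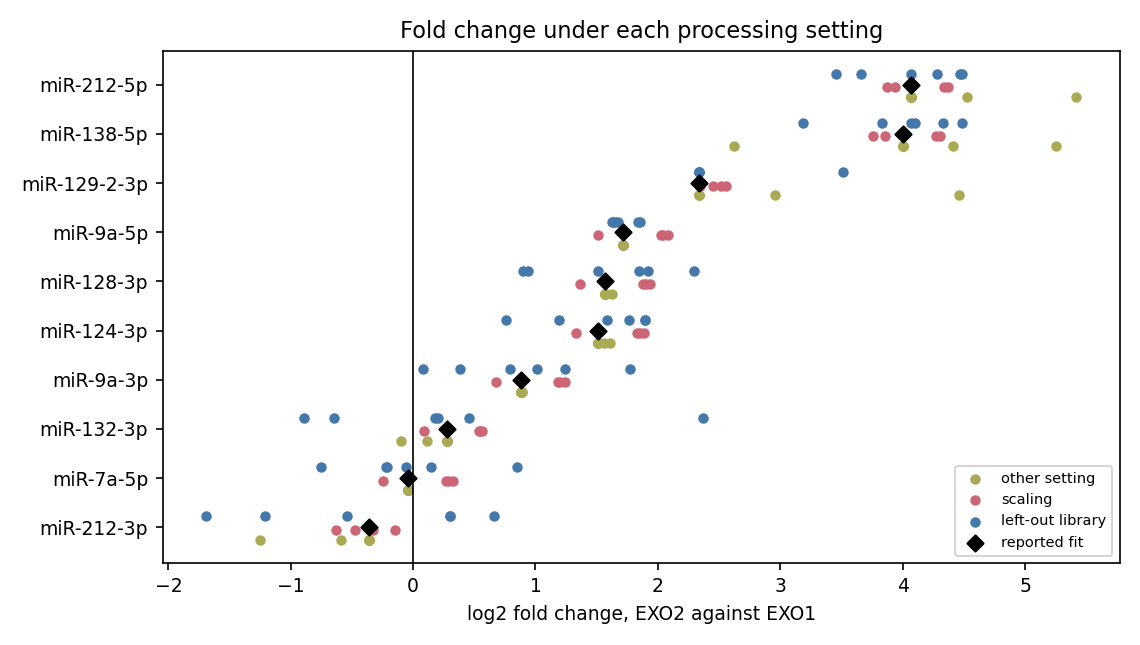
Log2 fold change of each miRNA, EXO2 against EXO1, in the reported fit (black diamond) and under each alternative, coloured by whether the scaling, a left-out library or another setting was changed. rno-miR-9a-5p stays between 1.51 and 2.08, whereas rno-miR-132-3p, rno-miR-7a-5p and rno-miR-212-3p lie on both sides of 0.

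Other miRNAs known as enriched in brain were looked up in a list of 34, of which 30 were in the table and 28 were tested. Of these, 9 lay above 0 and 19 below, with a median log2 fold change of -0.45, near the 154 above, 256 below and median of -0.56 of all 410 tested. The thresholds were passed upward by 0, against 5.85% of all, and downward by 1, rno-miR-770-3p, against 7.32% (log2 fold change -2.89, adjusted p = 0.342 from limma). All EXO2 libraries lay above all EXO1 libraries for 2 of the list, rno-miR-1298 and rno-miR-495, against 11.5% of all. They lay below them for 2, rno-miR-485-5p and rno-miR-770-3p, against 9.51%. rno-miR-1298, named after its values were seen, had EXO1 values of 0, 1.95 and 4.2 normalized CPM and EXO2 values of 27.5, 26.7 and 14.6, a log2 fold change of 3.22 (unadjusted p = 0.0655, adjusted p = 0.362 from limma). The most abundant of the list, rno-miR-218a-5p, a miRNA of motor neurons, had EXO1 values of 448, 311 and 755 normalized CPM and EXO2 values of 385, 310 and 398. rno-miR-411-5p and rno-miR-379-5p, both from the imprinted Dlk1-Dio3 cluster, had log2 fold changes of -0.82 and 0.30, and their groups overlapped as well.

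The glial marker rno-miR-338-3p was read at low levels and was not higher in EXO2, with EXO1 values of 0, 6.06 and 6.41 normalized CPM and EXO2 values of 0, 1.62 and 0.532. Its other arm, rno-miR-338-5p, had 0, 5.84 and 11.04 in EXO1 and 0, 51.3 and 0.266 in EXO2, with overlapping groups. The other glial marker looked up, rno-miR-219a-5p, was not listed. rno-miR-375-3p, the main miRNA of pancreatic islets, where miR-7 and miR-9 are also expressed, had 158, 185 and 225 in EXO1 and 225, 145 and 28.5 in EXO2, and so was not higher in EXO2. The neuroendocrine and photoreceptor list of rno-miR-182, rno-miR-183-5p and rno-miR-96-5p, all 3 above 0 in every library, did move with the groups, with summed values of 2199, 2119 and 1413 normalized CPM in the EXO1 libraries against 2742, 4641 and 3819. Of its members, rno-miR-182 lay higher in every EXO2 library and passed the thresholds (log2 fold change 1.16, unadjusted p = 0.0284, adjusted p = 0.333 from limma), while the groups overlapped for the other 2. As a share of reads the list overlapped, at 0.0591% to 0.430% in EXO1 and 0.385% to 0.517% in EXO2, and its part in the members' values was not tested. The erythrocyte miRNAs moved with the groups, and all 13 had a log2 fold change above 0, with a median of 1.17, against 154 of all 410 miRNAs. The lowest was 0.11, that of rno-miR-144-5p. Of the 13, 7 passed the thresholds upward, against 5.85% of all. All EXO2 libraries lay above all EXO1 libraries for 10 of them, against 11.5%. When the library factors were recomputed without the erythrocyte miRNAs, the same 4 members passed the thresholds of the methods, beside 42 of all 410 upward. When the libraries were scaled to the reads outside the erythrocyte and muscle lists, the same 4 passed again, beside 37 of 410 upward. In the reported fit 24 of 410 passed upward. Scaling by library totals alone left 1 member past the thresholds, and median-ratio (RLE) factors left 3. Whether erythrocyte vesicles contribute to the members' values was not tested.

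The miRNAs whose pattern over the 6 libraries was closest to that of rno-miR-9a-5p, by the root mean square difference of centred log2 values among 409 compared, were rno-miR-15a-5p (0.293), rno-miR-34c-5p (0.331) and rno-miR-484 (0.347). The closest, rno-miR-15a-5p, had EXO1 values of 132, 110 and 81.1 normalized CPM and EXO2 values of 299, 302 and 394. rno-miR-34c-5p had EXO1 values of 74.8, 75.5 and 35.6 normalized CPM and EXO2 values of 190, 198 and 146. None of the other members was among the closest, and rno-miR-124-3p came nearest, at rank 50, ahead of rno-miR-128-3p at 73 and rno-miR-9a-3p at 105.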

How the data were processed

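Small RNA of plasma exosomes was sequenced in 6 libraries, 3 EXO1 and 3 EXO2, grouped by their GEO labels. After adapter trimming, the authors discarded reads under 15 nucleotides, annotated miRNAs with miRDeep2 and deposited, per library and mature miRNA, a signal headed CPM. Bowtie, cutadapt 1.14 and edgeR 3.18.1 stand in the submitters' processing notes. The genome build and miRNA release were not given in the sources used here. Deposited log2 values of the group means, and the authors' fold changes and p-values, were not used.

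The table had 468 rows for 420 mature miRNAs, and 43 were listed more than once. All values were whole multiples of a library step (relative tolerance 1e-06), which gave the reads. The library factors in the values were those of TMM, a trimmed-mean scaling, and ran from 0.264 in EXO1 replicate 1 to 1.855 in EXO1 replicate 2. A count test was not run, because 5 of the 6 libraries held too few low values to meet the rule set for recovered reads. The 3 rows of rno-miR-9a-5p were identical, as were those of rno-miR-124-3p.

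The 410 miRNAs above 0 in 2 or more libraries entered a two-sided limma fit (version 3.58.1, R 4.3.3, eBayes with trend) on log2(value + 1) with Benjamini-Hochberg adjustment, and ratios with exact permutation tests (scipy 1.17.1). Fold changes on this scale understate the change of low miRNAs. Alternatives changed the scaling, filter, pseudocount, variance model, replicate block, left-out library and row choice, the last chosen after seeing the data. Depth was 2279500 to 5868405 reads, and Wilson intervals cover counting error only. The miRNAs named were the 10 members, their other arms and family, the 3 highest of a list of brain miRNAs, and the 3 patterns nearest to rno-miR-9a-5p. rno-miR-770-3p, rno-miR-1298, rno-miR-495, rno-miR-485-5p and rno-miR-338-5p were named after their values were seen. The members and lists were chosen with earlier results of these data known. Sequences came from RefSeq tables of GRCr8.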

Additional observations from a re-analysis of the deposited data

How the results depend on the processing

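No member passed an adjusted p of 0.05 (limma) in any of 17 alternatives (member values 0.104 to 0.981), and 155 of 166 member values kept their direction. Against 4 members and 54 miRNAs past the thresholds of the methods, scaling by library totals alone left 1 and 30. The 1 was rno-miR-129-2-3p, which had no read in EXO1 and passed the filter on low values only through EXO2. Leaving out single libraries gave 2 to 4 and 33 to 103. The lowest, 33, was without EXO2 replicate 3, and the highest, 103, without EXO1 replicate 1, in which muscle miRNAs took 82.6% of the reads. Of the 54, 24 were higher and 30 lower. The split was 8 and 22 with totals alone, 18 and 43 with median-ratio (RLE) factors, 42 and 25 with TMM without erythrocyte miRNAs, and 37 and 24 with totals without erythrocyte and muscle miRNAs. The median of all miRNAs, -0.56, was -0.43, -0.70, -0.27 and -0.30 in the same order. With 10 or more normalized CPM required in 3 libraries, 256 miRNAs were tested, their median was -0.06 and the split was 27 and 17.

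The direction of rno-miR-132-3p turned to -0.10 with a pseudocount of 0.1 and ranged from -0.89 to 2.37 without single libraries. rno-miR-212-3p ranged from -1.69 to 0.66, and rno-miR-7a-5p from -0.75 to 0.85. rno-miR-7a-5p also turned to 0.27 with totals alone, 0.33 with TMM without erythrocyte miRNAs and 0.29 with totals without both lists. Without single libraries the difference in log2 ratio ranged from -0.12 to 1.55 for the arms of miR-9a, 5.12 to 8.94 for those of miR-212 and -1.05 to 3.10 for rno-miR-132-3p to rno-miR-212-3p. The cause was not tested.

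Replicate numbers were not treated as pairs in the reported fit. Deviations of same-numbered libraries correlated at -0.04, 0.06 and -0.12, and those of differently numbered libraries at -0.11 to 0.16. With so few libraries these values cannot tell if same-numbered libraries belong together. With the replicate number as a block, 4 members and 41 miRNAs passed, and the ratio differences were 0.83, 6.58 and 1.64. rno-miR-129-2-3p could not be fitted without EXO2 replicate 1 or 2, nor, like rno-miR-212-3p, when a value of 10 or more was required in 3 libraries. Depth limits the low members most, since a 0 allows up to 3 reads, 0.538 to 1.90 normalized CPM.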

Other observations

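The balance between the near-identical rno-miR-7a-5p and rno-miR-7b was looked at after their values were seen. There were 98.5, 169 and 77.0 reads of rno-miR-7a-5p for each read of rno-miR-7b in EXO1 replicates 1, 2 and 3 and 41.3, 18.3 and 41.6 in EXO2, so that every EXO2 library had the lower ratio. rno-miR-7b itself had EXO1 values of 29.8, 76.6 and 18.3 normalized CPM and EXO2 values of 68.0, 205 and 112, with overlapping groups and a log2 fold change of 1.71 (SE 0.92, adjusted p = 0.379 from limma). No test was run on the ratio, and how the counting split reads between the pair is not stated in the sources used here.

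Also chosen after the values were seen, the 9 members other than rno-miR-7a-5p together took 0.761%, 0.465% and 0.152% of the reads outside the erythrocyte and muscle lists in EXO1 replicates 1, 2 and 3 and 2.75%, 1.16% and 0.953% in EXO2. Most of these reads were of rno-miR-128-3p and rno-miR-9a-5p. The separation of the groups rests on leaving out rno-miR-7a-5p. With all 10 members the groups overlapped. The 10 held 65393 of 1181303 such reads in EXO1 replicate 2, against 46222 of 1218979 in EXO2 replicate 1, the highest of EXO2. In EXO1 replicates 1 and 3 they held 8847 of 554012 and 10130 of 2454859, shares below those of every EXO2 library.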
